A study of Mus musculus with 138 samples.

Results

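Mast cells are scattered through the connective tissue of the embryonic head, and 7 genes that mark them were followed through the calvarial sutures of the mouse. The genes were Cma1, Mcpt4, Tpsb2, Tpsab1, Cpa3, Hdc and Kit, 7 of the 55487 genes counted. They were chosen by the levels they had already shown in these libraries and by their differences between regions and sutures, with no threshold, so their levels and their differences between regions, ages and sutures are given as descriptions without a p-value. Where members are said to be called at a threshold of p, the call is a description too and no evidence for a difference. The samples came from wild-type C57BL/6J embryos of embryonic stage E16.5 or E18.5, in days after conception. No group carried a mutation or received a treatment. The suture mesenchyme (SM), the unossified tissue between the bones, and the osteogenic fronts (OFs), the growing bone edges, were cut by laser from fresh frozen sections. The coronal suture was cut into SM, frontal front (FR) and parietal front (PA), the frontal suture into SM and FR, the lambdoid suture into SM, interparietal front (IP) and PA, and the sagittal suture into SM and PA. At the 2 ages this gave 20 groups of 5 embryos, in all 100 libraries from 40 embryos. Of the coronal samples 18 had a second library, a further 16 libraries held complete sutures at E18.5, and 4 single-cell libraries held dissociated coronal sutures.

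Mast cells arise from blood progenitors and settle in connective tissue, where they need signals through the receptor KIT to live. Their granules hold proteases, histamine and other amines packed on heparin. In mice, a connective tissue type of mast cell, known from skin and from serous cavities, carries the chymases encoded by Cma1 and Mcpt4, the tryptases encoded by Tpsb2 and Tpsab1, and carboxypeptidase A3, encoded by Cpa3. Mucosal mast cells carry instead the proteases of Mcpt1 and Mcpt2. Hdc encodes histidine decarboxylase, the enzyme that makes histamine. Kit is the least specific of the 7, since melanocytes, blood progenitors and some endothelial cells use it too. In C57BL/6 mice Tpsab1 is known to give little or no protein.

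The members lie at 5 places in the genome (mm10 coordinates, as the count tables give them). Cma1 (chr14:55941451-55944675, minus strand) and Mcpt4 (chr14:56059629-56062313, minus strand) share a cluster of protease genes. Tpsab1 (chr17:25343245-25345562, minus strand) and Tpsb2 (chr17:25366305-25369098, plus strand) lie beside each other. Cpa3 (chr3:20215620-20242181, minus strand), Hdc (chr2:126593667-126619299, minus strand) and Kit (chr5:75574916-75656722, plus strand) lie apart. Reads were counted over the exons of each gene without regard to strand. Of all windows of 50 bases in its exons, Cma1 shared 5.379% and Mcpt4 5.477% with a neighbouring relative, so a small part of their reads cannot be assigned, and the windows of Tpsb2, Tpsab1, Cpa3 and Kit were shared with no other gene.

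The 250 bases before the start site of 3 proteases are printed here. These are the members that encode granule proteases and have a window in the RefSeq table. The windows were searched because mast cells depend on GATA factors. Of the words that these factors bind, only AGATAA and TGATAA were searched for. The sequences are RefSeq's, on GRCm38.p6, read 5′ to 3′ on the strand of the gene, from chr3:20242182-20242431 for Cpa3, chr14:56062311-56062560 for Mcpt4 and chr14:55944676-55944925 for Cma1. Capitals mark AGATAA or TGATAA, searched on both strands.
Cpa3: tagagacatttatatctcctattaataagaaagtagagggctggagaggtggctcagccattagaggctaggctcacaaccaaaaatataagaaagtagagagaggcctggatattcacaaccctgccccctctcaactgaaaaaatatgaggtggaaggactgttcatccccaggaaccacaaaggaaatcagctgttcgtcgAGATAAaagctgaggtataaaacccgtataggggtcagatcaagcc
Mcpt4: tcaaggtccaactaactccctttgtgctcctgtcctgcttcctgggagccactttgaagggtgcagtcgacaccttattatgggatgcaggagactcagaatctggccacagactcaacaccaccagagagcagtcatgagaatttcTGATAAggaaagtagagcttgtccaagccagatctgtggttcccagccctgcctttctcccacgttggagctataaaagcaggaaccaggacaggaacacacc
Cma1: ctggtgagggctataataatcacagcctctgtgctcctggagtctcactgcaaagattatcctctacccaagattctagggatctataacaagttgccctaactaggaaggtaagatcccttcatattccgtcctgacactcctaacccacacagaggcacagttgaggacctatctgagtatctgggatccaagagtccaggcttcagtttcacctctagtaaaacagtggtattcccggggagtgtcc
Cpa3 held AGATAA starting 46 bases before its start, next to a TATAAA at 31 bases. Mcpt4 held TGATAA at 103 bases and TATAAA at 32 bases, and the window of Cma1 held neither GATA word. AGATAA or TGATAA occurred in 18.84% of the same windows of 27025 genes, and TATAAA in 14.33%. RefSeq windows were at hand for 5 of the 7 members. Those of Hdc and Kit held neither GATA word, and the E-box word CANNTG, which 69.3% of all windows hold, occurred at 2 places in Cpa3 and at 1 each in Hdc and Cma1. These letters are a description and not sites of binding. Since other forms of the GATA word were not searched for, a window without AGATAA and TGATAA may still hold 1.

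Levels are given as counts-per-million (CPM), which state the share of a gene in all counts of its library. The first coronal libraries held 20133332 to 34518477 counts, those of the other sutures 7305627 to 18450955, and the complete sutures 8903413 to 15155332. In 1 library 3 counts thus stood at 0.08691 to 0.149 CPM in the coronal suture and at 0.1626 to 0.4106 CPM in the others. No fold is given where the 5 libraries of a group together held 3 or fewer counts of a gene. At E16.5 the coronal libraries, though deeper, held counts of 17274 to 22824 genes against 25118 to 28397 in the frontal suture, and the part of this in the results was not tested. All 7 members passed the filter on low counts, with 19768 genes in all. In the first captured libraries suture and depth went together and cannot be told apart, and since no litter held both ages, neither can stage and litter. In such bulk samples, fewer cells of a type and less RNA per cell cannot be told apart either. Defining markers of bone followed the region labels, and osteoblast markers summed to medians of 24.85 to 296.5 CPM in the SM groups and of 2448 to 14230 CPM in the OF groups.

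All 7 genes were detected in the SM of the frontal, lambdoid and sagittal sutures, and all but Kit were low or at 0 in the coronal suture. Cpa3, which encodes the granule carboxypeptidase, is given first. In the lambdoid SM it read 89.47, 132.1, 145.2, 91.41 and 157.9 CPM at E16.5. At E18.5 the lambdoid SM read 113.2, 187.3, 137.8, 145.6 and 129 CPM. In the coronal SM it read 10.5, 4.064, 0, 0 and 0 CPM at E16.5 and 0, 0, 2.768, 0 and 0.9934 CPM at E18.5. Every lambdoid SM library thus lay above every coronal one. In the frontal SM the mean was 53.66 ± 23.29 CPM at E16.5 and 185.7 ± 31.02 CPM at E18.5 (SD, n = 5), the latter the highest of the 20 groups. The sagittal SM stood between, at 30.19 ± 6.355 and 63.89 ± 26.07 CPM.

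**Figure D1:**
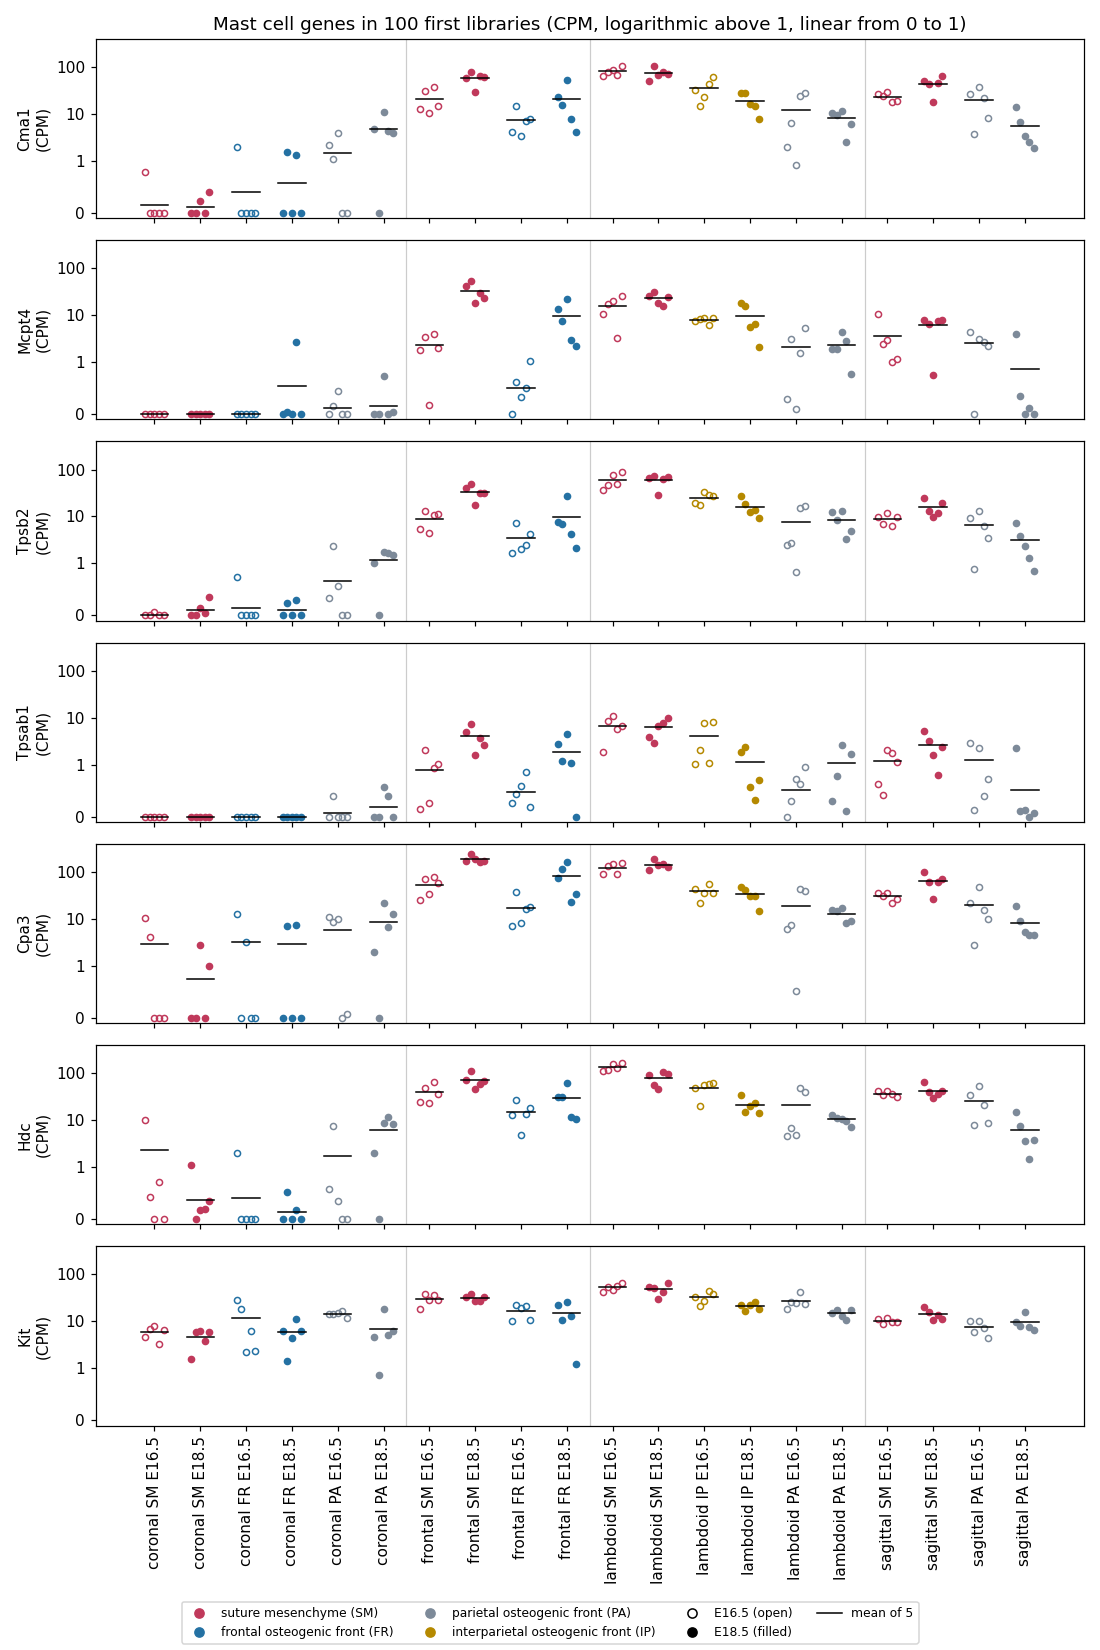
CPM of each of the 7 genes (1 panel per gene, vertical axis linear near 0 and logarithmic above) in the 20 groups of suture, region and stage. Each point is 1 library, open at E16.5 and filled at E18.5, and each line is the mean of 5. Many coronal points lie at 0 for every gene but Kit, and SM means outside the coronal suture lie above the OF means except for Tpsab1 in the sagittal suture at E16.5.

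The chymase Cma1 was likewise low in the coronal suture. Its SM mean was 80.74 ± 16.67 CPM at E16.5 and 75.64 ± 20.56 CPM at E18.5 in the lambdoid suture, against 0.1559 ± 0.3486 and 0.1248 ± 0.1813 CPM in the coronal suture (SD, n = 5). Mcpt4, the other chymase, was at 0 in all 10 coronal SM libraries. Its highest mean, 33.44 ± 14.94 CPM, was in the frontal SM at E18.5. The tryptase Tpsb2 was highest in the lambdoid SM, at 59.93 ± 22.33 and 59.49 ± 17.81 CPM at the 2 ages. Tpsab1 was highest there as well, at 6.731 ± 3.332 and 6.218 ± 2.833 CPM.

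Hdc reached its highest mean in the lambdoid SM at E16.5, at 137.7 ± 24.28 CPM, and stood at 2.271 ± 4.446 CPM in the coronal SM of that age (SD, n = 5). Kit had counts in every one of the 100 libraries, the lowest at 0.8655 CPM in a coronal PA. Its SM means ran from 4.673 ± 1.991 CPM in the coronal suture at E18.5 to 53.47 ± 8.997 CPM in the lambdoid suture at E16.5. Ordered by mean over the 20 groups, the 6 coronal groups took places among the lowest 7 for every member but Kit, whose coronal groups ranged from place 11 to place 20. Few neighbours in these orders differed by more than their spread. Of 19 neighbouring pairs of groups, those further apart than 1 SD numbered 2 for Tpsb2, 1 each for Tpsab1, Cpa3, Hdc and Kit, and 0 for Cma1 and Mcpt4.

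Genes were compared with each other per kilobase of exon, as CPM divided by the length of the exons in kilobases (RPKM). In the lambdoid SM at E18.5 the mean RPKM fell in the order Cpa3 (93.98), Cma1 (69.4), Tpsb2 (37.32), Mcpt4 (20.85), Hdc (12.57), Kit (5.438) and Tpsab1 (2.969). In the frontal SM at E18.5 the mean RPKM order was Cpa3 (122.4), Cma1 (53.79), Mcpt4 (30.18), Tpsb2 (21.37), Hdc (11.07), Kit (3.549) and Tpsab1 (1.931). The carboxypeptidase and the chymase thus led in both sutures, with Mcpt4 above Tpsb2 in the frontal SM and below it in the lambdoid SM.

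The SM was compared with each OF of its suture to ask where in the suture these transcripts lie. Outside the coronal suture the SM stood higher for every member. Over 8 comparisons and 7 genes, 55 of 56 log2 fold changes of SM over OF were above 0, with a median of 1.55, against a median of 0.0064 over all genes tested. At an adjusted p of 0.05 (edgeR quasi-likelihood test, Benjamini-Hochberg over 19768 genes), 21 of the 56 were called higher in SM and 0 lower, where 6.89% of all genes were called higher and 10.7% lower. At an unadjusted p of 0.05 the test gave 30 higher and 0 lower. Since the genes were picked for this pattern, nothing is read from those counts. Every SM library lay above every OF library in 29 of the 56, a state that 12.4% of all genes reached. The exception in direction was Tpsab1 in the sagittal suture at E16.5, at -0.06 ± 0.93 (SE) on the log2 scale.

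In the lambdoid suture at E18.5 the SM and PA were well apart. Cma1 read 51.63, 107.8, 68.76, 79.25 and 70.81 CPM in SM and 10.57, 9.615, 11.84, 2.527 and 6.226 CPM in PA. The 2 ranges were far apart, and the log2 fold change was 3.05 ± 0.79 (SE). Cpa3 read 113.2, 187.3, 137.8, 145.6 and 129 CPM in SM against 15.65, 14.87, 17.36, 8.155 and 9.1 CPM in PA, a log2 fold change of 3.29 ± 0.95. Mcpt4 followed at 3.13 ± 0.97, Hdc at 2.77 ± 0.79, Tpsb2 at 2.64 ± 0.66, Tpsab1 at 2.32 ± 0.97 and Kit at 1.54 ± 0.41. Of the 7, 6 were called higher (9.85% of all genes), and Tpsab1 missed the threshold. DESeq2, limma-voom and the fit with the embryo as a replicate block each called all 7. Against the interparietal front of the same age the log2 fold changes were smaller, from 1.13 for Kit to 2.30 for Tpsab1, and Kit and Tpsb2 were called (7.34% of all genes). Limma-voom called all 7 there and DESeq2 called 2. With the embryo as a replicate block 5 members were called there.

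At E16.5 the lambdoid SM stood above PA by 2.49 ± 0.76 for Cma1, 2.44 ± 0.91 for Cpa3 and 3.40 ± 1.03 for Tpsab1 on the log2 scale (SE), and 6 of the 7 were called, all but Kit (9.68% of all genes). DESeq2 called 4 of the 7 and limma-voom 6. The PA libraries were uneven. Cpa3 read 6.203, 7.504, 0.5163, 42.5 and 38.63 CPM there, high in embryos 4 and 5 and low in the other 3, and Cma1 and Hdc were high in the same 2 libraries. Against IP the log2 fold changes ran from 0.60 for Kit to 1.55 for Cpa3, and 0 members were called (3.9% of all genes). The quasi-likelihood test gave 0 at an unadjusted p of 0.05 there, DESeq2 0 and limma-voom 3.

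The sagittal suture differed between the ages. At E16.5 Cma1 read 26.98, 23.78, 29.56, 17.89 and 19.09 CPM in SM and 27.04, 3.806, 37.53, 22.2 and 8.2 CPM in PA. The PA range enclosed the SM range, and the log2 fold changes of the 7 genes lay between -0.06 and 0.63, with 0 called by the quasi-likelihood test (0 also at an unadjusted p of 0.05, 0 by DESeq2 and 0 by limma-voom; 6.58% of all genes). At E18.5 Cma1 read 50.03, 42.69, 17.7, 46.62 and 64.99 CPM in SM and 13.79, 6.757, 3.46, 2.531 and 1.907 CPM in PA. Here the SM lay above PA throughout, by 2.92 ± 0.78 (SE) on the log2 scale. Cma1, Cpa3, Hdc, Mcpt4 and Tpsb2 were called higher (10.8% of all genes), and Kit differed by 0.55 ± 0.41. Tpsab1, which was not called, had means of 2.646 CPM in SM and 0.5092 CPM in PA. DESeq2, limma-voom and the fit with the embryo as a replicate block each called 6 of the 7.

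In the frontal suture the SM means stood above FR at both ages. Cpa3 read 25.73, 71.27, 34.22, 79.9 and 57.21 CPM in SM and 7.012, 36.79, 8.323, 16.68 and 17.69 CPM in FR at E16.5. Within each of the 5 embryos the SM was higher, and the ranges overlapped, with a log2 fold change of 1.55 ± 0.89 (SE). The other members stood between 0.77 (Kit) and 2.09 (Mcpt4), and 0 were called (2.76% of all genes; 1 at an unadjusted p of 0.05, 0 by DESeq2 and 0 by limma-voom). At E18.5 Tpsb2 read 40.33, 49.47, 17.23, 32.34 and 30.93 CPM in SM and 7.761, 6.761, 27.96, 4.144 and 2.167 CPM in FR. FR of embryo 3 stood alone, above the SM of its own embryo, and the log2 fold change was 1.85 ± 0.65. Tpsb2 and Kit, the latter at 1.17 ± 0.41, were called (4.23% of all genes). DESeq2 called Kit alone and limma-voom every member but Tpsab1, and the edgeR fit made neither call without replicate 2, 4 or 5.

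**Figure D2:**
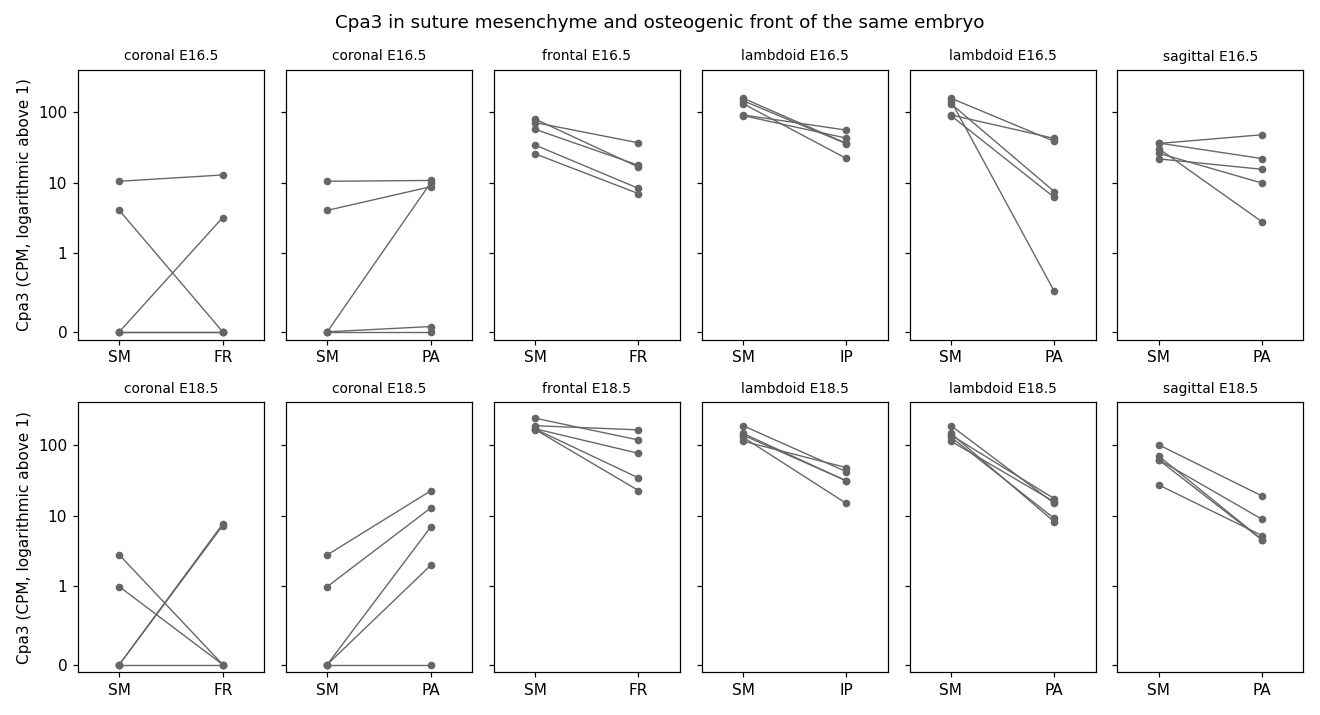
Cpa3 in CPM (vertical axis linear near 0 and logarithmic above) in the SM and the OF of each embryo, in 12 panels for the 12 comparisons. Each line joins the 2 regions of 1 embryo. Outside the coronal suture 39 of 40 lines rise toward the SM, and in the coronal panels many points lie at 0.

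Counted within embryos, Cpa3 and Kit were each higher in SM in 39 of the 40 pairs of SM and OF outside the coronal suture, Hdc in 38, Tpsb2 in 37, Cma1 in 36, and Mcpt4 and Tpsab1 in 34. Embryos of the lambdoid suture enter these counts with both fronts. Kit, which had the smallest differences with a median log2 fold change of 0.74, was thus as even as Cpa3, with a median of 1.79.

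The coronal suture did not share this pattern. Leaving Kit aside, 10 of the 30 first coronal libraries held no count of any of the other 6 members and 2 held all 6. Their summed level lay between 0 and 44.94 CPM. Outside the coronal suture 0 of 70 libraries were without a count, 63 held all 6 members, and the summed level lay between 7.847 and 551.6 CPM. The coronal counts were unevenly spread over libraries. Summed over the 6 genes, FR at E16.5 read 17.68, 0, 3.214, 0 and 0 CPM, with most of it in embryo 1. PA at E18.5 read 9.848, 0, 44.94, 24.98 and 26.46 CPM, with counts in every embryo but embryo 2.

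Within the first coronal libraries Cma1 had its highest levels in PA at E18.5. It read 4.901, 0, 10.88, 4.318 and 4.021 CPM in PA, 0, 1.518, 0, 1.349 and 0 CPM in FR, and 0, 0, 0.2269, 0 and 0.3974 CPM in SM. The SM was below PA in 4 embryos, and both were at 0 in embryo 2. The log2 fold change of SM over PA was -5.50 ± 1.07 (SE) for Cma1, -4.34 ± 0.98 for Hdc, -3.87 ± 1.08 for Cpa3 and -3.70 ± 0.91 for Tpsb2. The fold of Cma1 rests on 13 counts in the SM group and that of Tpsb2 on 11. Those 4 and Tpsab1 were called lower in SM (9.77% of all genes). At E16.5 SM was called below PA for Cma1, Tpsb2, Tpsab1 and Kit (16.6% of all genes). Cma1 differed by -3.25 ± 1.03, and Tpsb2 and Tpsab1 had 3 or fewer counts or none in the SM group, so that no fold is given.

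Several of those calls depended on the fit or on 1 embryo. With limma-voom 1 member was called at each age, Kit at E16.5 and Cma1 at E18.5. The fit with the embryo as a replicate block called 3 members lower than PA at E16.5 and 5 at E18.5. At E16.5 the call of Cma1 was lost without replicate 3 (log2 fold change of -1.94), and those of Tpsb2 and Tpsab1 without replicate 2. With each suture and stage fitted by itself the Kit and Cma1 calls of E16.5 and the Cpa3 and Tpsb2 calls of E18.5 were lost, and with the second coronal libraries in place of the first the Kit and Cma1 calls of E16.5. At E18.5 the Tpsab1 call was lost without replicate 3 or 4, and that of Cma1 was made under every alternative. Against FR, Mcpt4 alone was called lower in SM at E18.5 (2.41% of all genes), where it read 0, 0.0353, 0, 2.698 and 0 CPM in FR and 0 in SM. At E16.5 the quasi-likelihood test called 0 members lower than FR (14.9% of all genes), where DESeq2 called Kit and Tpsb2 lower and limma-voom 0, and called Hdc higher (15.4% of all genes), at 10.21, 0.4323, 0, 0.7186 and 0 CPM in SM against 2.041, 0, 0, 0 and 0 CPM in FR. With the embryo as a replicate block neither the Mcpt4 nor the Hdc call was made, 0 members being called against FR at either age. The Mcpt4 call was also lost without replicate 2, 4 or 5, and the Hdc call without replicate 1, 3, 4 or 5. Over the 4 coronal comparisons 10 of 28 were lower and 1 higher, where 10.9% of all genes were called in each direction, with a median log2 fold change of -1.84. In 27 of the 28 the SM and OF ranges overlapped.

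Kit had counts in every coronal library. At E16.5 it read 4.751, 6.831, 7.928, 3.354 and 6.428 CPM in SM and 14.38, 14.21, 15.27, 16.98 and 12.02 CPM in PA. All 5 SM libraries lay below all PA libraries, and the log2 fold change was -1.47 ± 0.41 (SE). In the second libraries of embryos 1, 2 and 3, Kit read 8.218, 3.719 and 5.671 CPM in SM and 11.9, 2.013 and 4.238 CPM in PA. There SM was lower in embryo 1 and higher in embryos 2 and 3, unlike in the first libraries of the same embryos, and the PA levels of embryos 2 and 3 differed more between the libraries of 1 sample than SM and PA did in the first. The coronal FR read 29.23, 18.04, 2.225, 6.183 and 2.289 CPM for Kit at E16.5, on both sides of SM.

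The fronts of 1 suture were also set against each other. The levels in the fronts were among those known when the genes were chosen, so these values too are a description. In the coronal suture at E18.5 the quasi-likelihood test called 4 of the 7 lower in FR than in PA, where it called 2.01% of all genes. Hdc read 0, 0.5295, 0, 0.1686 and 0 CPM in FR and 1.961, 0, 8.688, 11.81 and 8.144 CPM in PA. PA was higher in 4 of 5 embryos, and the log2 fold change of FR over PA was -5.38 ± 1.07 (SE). Cma1 differed by -3.11 ± 0.86 and Tpsb2 by -3.43 ± 0.87. Tpsab1 was at 0 in all 5 FR libraries and at 0, 0, 0.5684, 0.3965 and 0 CPM in PA. In embryo 2 PA was at 0 for all 4 genes, while FR held Hdc, Tpsb2 and Cma1, the last at 1.518 CPM, and no Tpsab1. Cpa3 differed by -1.66 ± 0.93, Kit by -0.53 and Mcpt4 by 1.54, none of them called.

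Of the 4 calls that of Hdc was made under all 16 settings. The others rested on few embryos. The call of Cma1 was lost in 5 of 16 settings, among them without replicate 1, 3 or 5 (log2 fold changes of -2.79, -2.21 and -2.81). That of Tpsb2 was lost in 4 of 16, among them without replicate 3 or 5 (-2.92 and -2.98), and that of Tpsab1 in 3 of 15, among them without replicate 3 or 4. Limma-voom made none of these 3 calls. The second libraries of the coronal samples gave the same order. Cma1 read 4.501, 18.42 and 5.002 CPM in PA of embryos 1, 3 and 4 and 0.07797, 0 and 0 CPM in FR of embryos 1, 3 and 5. They carry the same replicate labels and are not further embryos.

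The other comparisons of 2 fronts gave no call by the quasi-likelihood test. At E16.5 the coronal FR stood below PA, with log2 fold changes of -2.23 for Hdc and -2.32 for Tpsb2. There the quasi-likelihood test called 0 members where it called 6.57% of all genes lower. At an unadjusted p of 0.05 it gave 5, DESeq2 called 2 and limma-voom 1. In the lambdoid suture all 14 log2 fold changes of IP over PA were above 0, with a median of 1.10. Of them 0 were called, where 0.243% of all genes were called higher at E16.5 and 0.00506% at E18.5. At an unadjusted p of 0.05 the test gave 2 at E16.5 and 1 at E18.5, and DESeq2 and limma-voom called 0. With each suture and stage fitted by itself Tpsab1 and Tpsb2 were called at E16.5. Tpsab1 stood at 2.78 there.

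The ages were compared region by region. Over 10 regions and 7 genes, 70 pairs in all, 3 were called higher at E18.5 (4.43% of all genes) and 3 lower (4.14% of all genes). Both counts stand near the shares over all genes. How many of all genes had ranges apart between the ages was not counted, so such separations below are a description. Outside the coronal suture both calls concerned the frontal suture and the chymase Mcpt4. In the frontal SM it read 1.802, 3.36, 0.1732, 4.061 and 1.996 CPM at E16.5 and 42.48, 54.57, 18.03, 29.16 and 22.99 CPM at E18.5. The ranges did not overlap, and the log2 fold change was 4.05 ± 1.00 (SE; 1.11% of all genes called higher). The call was lost without replicate 2, where the value was 4.00. In the frontal FR Mcpt4 read 0, 0.6162, 0.3251, 0.5034 and 1.074 CPM at E16.5 and 13.64, 7.401, 21.83, 2.973 and 2.261 CPM at E18.5. Again every E18.5 library lay above every E16.5 library, with a log2 fold change of 4.31 ± 1.05 (2.19% of all genes called higher).

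The other members of the frontal suture differed less. Of them the quasi-likelihood test and DESeq2 called none, while limma-voom called Cma1, Cpa3, Tpsab1 and Tpsb2 in SM and Cpa3 in FR. At an unadjusted p of 0.05 the quasi-likelihood test gave 5 of the 7 members higher in SM and 5 in FR, Mcpt4 among them. For Cpa3 and Tpsb2 in SM every E18.5 library lay above every E16.5 library. In the SM the log2 fold changes were 2.35 for Tpsab1, 2.10 for Tpsb2, 2.00 for Cpa3, 1.66 for Cma1, 1.04 for Hdc and 0.27 for Kit. In the FR they ran from -0.12 for Kit to 2.39 for Cpa3. In the lambdoid SM the 7 lay between -0.65 (Hdc) and 0.74 (Mcpt4). Hdc nevertheless read 112.2, 119.1, 160.8, 130.6 and 165.6 CPM at E16.5 and 91.82, 57.23, 47.04, 107.7 and 97.72 CPM at E18.5, with every later library below every earlier one. Kit in the lambdoid PA did the same, at 18.51 CPM or more at E16.5 and at most 17.89 CPM at E18.5. In the sagittal suture the SM values were all above 0 (0.29 for Hdc to 1.19 for Tpsab1) and the PA values all below 0 but that of Kit (-1.85 for Hdc to 0.43 for Kit). None was called in the lambdoid or sagittal suture by edgeR, DESeq2 or limma-voom. At an unadjusted p of 0.05 the quasi-likelihood test gave 1 in the lambdoid PA, 2 in the sagittal PA and 0 in the other lambdoid and sagittal regions.

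In the coronal suture Mcpt4 was called higher in FR at E18.5 (12.6% of all genes), a call that rested on embryo 4 with 2.698 CPM and was lost without it and under limma-voom (1.37). Hdc was called lower in SM (13.6% of all genes) with a log2 fold change of -3.11, where 1 library of E16.5 held 10.21 CPM and the others at most 0.7186 CPM. Without embryo 1 that value was -0.86 and the call was lost, as it was under limma-voom (-0.67) and with the second libraries in place of the first (-3.23). Kit was called lower in FR, at -1.38 ± 0.41 (SE; 11.8% of all genes), and in PA, at -1.33 ± 0.41 (9.03% of all genes). The Kit call in FR was lost without replicate 1 (-0.74) or 2 (-0.94), the embryos with the high levels at E16.5, under limma-voom (-0.99), with total counts as the scaling (-0.97) and with the second libraries in place of the first (-1.01). That in PA was lost without replicate 2 (-1.07) or 4 (-1.23) and with total counts (-1.06).

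Between the chymases the balance differed between the ages in the frontal suture, where stage and litter cannot be told apart. The count of Mcpt4 divided by that of Cma1 in the same library had a median of 0.1107 in the frontal SM at E16.5 (0.01653 to 0.1437) and of 0.6193 at E18.5 (0.3748 to 0.7416). In FR the medians were 0.07071 (0 to 0.1371) and 0.4709 (0.3793 to 0.5829). At both sites the ranges of the 2 ages were apart. Elsewhere they overlapped, as in the lambdoid SM at 0.2209 (0.04708 to 0.2412) and 0.2972 (0.1952 to 0.5013) and in the sagittal SM at 0.1 (0.05597 to 0.3937) and 0.1492 (0.04292 to 0.1612). The ratio does not use the library total. It uses the same Mcpt4 counts that gave the frontal age calls above, so it is no further evidence for them.

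**Figure D3:**
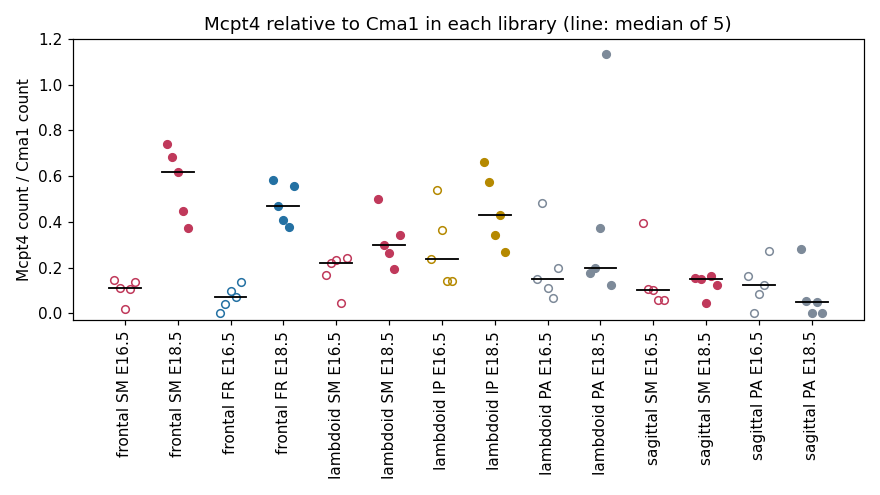
Ratio of Mcpt4 to Cma1 counts (vertical axis, no unit) in each library outside the coronal suture, by suture, region and stage. Each point is 1 library and each line the median of a group. In the frontal suture the E18.5 points lie above all E16.5 points, and in the lambdoid and sagittal sutures the ages overlap.

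Whole sutures, taken at E18.5 as normalization controls, were sequenced in 4 library sets that each held all 4 sutures, so that sutures can be compared within a set. Coronal and frontal libraries of a set had like depth. The coronal ones held 15155332, 11621958, 9534171 and 14088921 counts, and the frontal ones 14459580, 10977371, 10275328 and 14952534. The part of depth in the differences between sutures was not tested. Cma1, Mcpt4, Tpsb2, Cpa3 and Hdc each had the order frontal, sagittal, lambdoid and coronal, from high to low, in all 4 sets. Cpa3 read 101.6, 105.3, 80.58 and 92.43 CPM in the frontal suture and 3.629, 1.721, 2.412 and 4.897 CPM in the coronal suture, in the sets named C, IF, L and S. The frontal suture exceeded the coronal 18.87 to 61.19 times within a set for Cpa3, 14.82 to 53.54 times for Cma1 and 10.02 to 15.27 times for Hdc. Sagittal levels of Cpa3 were 39.59, 42.09, 40.8 and 39.58 CPM, and lambdoid levels 25.33, 29.88, 26.74 and 31.87 CPM. Kit was 1.569 to 3.609 times higher in the frontal than in the coronal suture, and Kit and Tpsab1 did not keep that order in every set. The labels do not say whether the sets hold different animals or the same RNA. No p-value is given, and the spread between sets may be technical. Unlike the captured SM, the whole lambdoid suture was below the whole sagittal one. Osteoblast markers summed to a median of 4510 CPM in the whole lambdoid and 1823 CPM in the whole sagittal suture, and their part in the result was not tested.

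**Figure D4:**
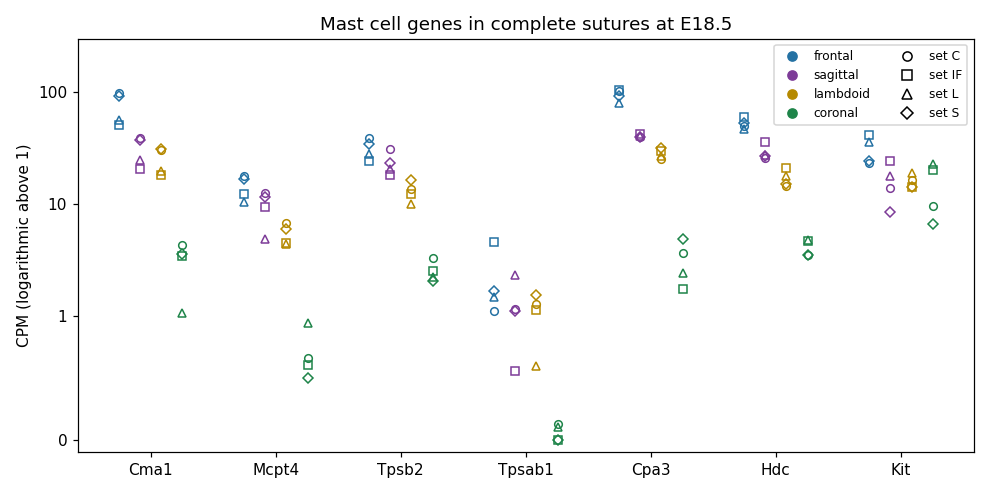
CPM of each of the 7 genes (logarithmic above the lowest levels) in complete coronal, frontal, lambdoid and sagittal sutures at E18.5. Each point is 1 of the 4 library sets. The coronal points are the lowest in each set for Cma1, Mcpt4, Tpsb2, Cpa3 and Hdc.

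Litters shared by sutures offered a comparison within litter, for 3 of the 17 litters. In the litter of the coronal embryo 1 at E16.5, Cpa3 was at 10.5 CPM in the coronal SM and at 34.22, 79.9 and 57.21 CPM in the frontal SM of 3 other embryos. In a litter of E18.5, Cpa3 was at 0 and 0 CPM in the SM of 2 coronal embryos and at 168 CPM in that of 1 frontal embryo. In the third, Cpa3 was at 129 CPM in a lambdoid SM and at 100.2, 61.65 and 27.05 CPM in 3 sagittal SMs. The coronal suture was therefore the lowest within both litters that held it.

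Markers of other cells moved with the members in part. The summed macrophage markers had medians of 252.2 CPM in SM and 136.7 CPM in FR of the frontal suture at E18.5, and of 184.8 CPM in SM, 121.5 CPM in IP and 122.7 CPM in PA of the lambdoid suture at E18.5. The members together read 387.9 CPM in that frontal SM and 460.9 CPM in that lambdoid SM. The coronal suture parted from them. Its SM at E18.5 held macrophage markers at 178.5 CPM and the members at 5.894 CPM, and its whole suture held macrophage markers at 266.2 CPM, close to the 282.2 CPM of the whole frontal suture. Markers of hypodermis and dermis were at 125.2 CPM in the lambdoid SM at E18.5 against 9.195 CPM in PA, and at 141.9 CPM in the coronal SM of that age. Their part in the result was not tested. Basophil markers summed to medians of at most 0.3103 CPM and melanocyte markers to at most 1.779 CPM in every group.

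A list of 29 further mast cell genes, of which 19 passed the filter, was tested over the same comparisons. The list was chosen with earlier results of these data known, so its p-values are no independent evidence. Several of them rose with the members in the lambdoid and sagittal SM. Outside the coronal suture 28 of 152 were higher in SM and 3 lower, beside 6.89% and 10.7% of all genes, with a median log2 fold change of 0.83 and 135 of the 152 above 0. In the coronal suture 7 of 76 were higher and 10 lower, beside 10.9% of all genes in each direction.

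Il1rl1, the receptor for interleukin 33 on mast cells, was among those called in 4 comparisons outside the coronal suture. Its means in SM were 41.97 and 46.01 CPM in the lambdoid suture at the 2 ages, 10.84 and 23.24 CPM in the frontal, 9.589 and 13.56 CPM in the sagittal and 1.619 and 1.487 CPM in the coronal suture. It was higher in SM than in the lambdoid PA at E16.5 by 2.59 ± 0.74 (SE; adjusted p = 0.004998, edgeR) and at E18.5 by 2.84 (adjusted p = 0.002059, edgeR) on the log2 scale. Above the lambdoid IP at E18.5 it stood by 2.19 (adjusted p = 0.02058, edgeR) and above the sagittal PA at E18.5 by 2.02 (adjusted p = 0.02934, edgeR). Adora3, an adenosine receptor of mast cells, rose in the same 4 comparisons, by 3.22 (adjusted p = 0.01622, edgeR), 3.96 (adjusted p = 0.002789, edgeR), 3.18 (adjusted p = 0.01641, edgeR) and 2.96 (adjusted p = 0.02563, edgeR). Gata2, a transcription factor of mast cells and their progenitors, rose over the lambdoid PA by 2.28 at E16.5 (adjusted p = 0.02094, edgeR) and by 2.63 at E18.5 (adjusted p = 0.007191, edgeR).

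Mrgprb1 and Mrgprb2, receptors of a family known from connective tissue mast cells, changed with age in the frontal suture and in some other regions. Mrgprb1 rose in the frontal SM by 5.91 ± 1.18 on the log2 scale (SE; adjusted p = 0.000925, edgeR), from a median of 0 CPM at E16.5 to 7.747 CPM at E18.5. In the frontal FR it was at 0 in all 5 libraries at E16.5 and at a median of 5.132 CPM at E18.5 (adjusted p = 0.000156, edgeR). Mrgprb2 rose in the frontal SM by 4.30 ± 0.95 (SE; adjusted p = 0.003252, edgeR) and in the FR by 5.25 (adjusted p = 0.000765, edgeR), the latter on 5 counts at E16.5. Mrgprb2 was also higher at E18.5 in the lambdoid PA, at a mean of 1.354 CPM against 0.02111 CPM at E16.5 (adjusted p = 0.004924, edgeR). Both were higher at E18.5 in the coronal PA, where they were at 0 in all 5 libraries at E16.5 (means at E18.5 of 0.3705 CPM for Mrgprb1 and 0.3764 CPM for Mrgprb2, adjusted p = 0.003506 and 0.0003603, edgeR). In the coronal FR Mrgprb2 was lower at E18.5, at 1 count against 23 counts in 1 library at E16.5 (adjusted p = 0.005043, edgeR), a difference that turned without replicate 3. Over all 10 age comparisons 11 of 190 were higher at E18.5 and 8 lower, beside 4.43% and 4.14% of all genes.

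Tph1, the first enzyme of serotonin synthesis in mast cells, was higher in the sagittal SM at E18.5 by 3.60 (adjusted p = 0.007337, edgeR), as was Mrgprb1 by 2.60 (adjusted p = 0.04849, edgeR) and Mrgprb2 by 2.88 (adjusted p = 0.01193, edgeR). Unlike most members, Tph1 was also called higher in the coronal SM than in FR and in PA at E16.5. Between the ages it was called lower in the coronal SM at E18.5. The 3 calls that fell outside the coronal suture were all of Rab27b, a GTPase of granule release that other cells use too. It fell by 1.31 in the frontal suture at E16.5 (adjusted p = 0.01328, edgeR), by 1.11 against the lambdoid PA at E18.5 (adjusted p = 0.02189, edgeR) and by 1.91 in the sagittal suture at E18.5 (adjusted p = 3.7e-05, edgeR). Fcer1g, the signalling chain of Fc receptors, which macrophages share, was higher in the coronal SM in 3 comparisons, by 1.59 and 0.98 against FR at E16.5 and E18.5 and by 1.00 against PA at E18.5. Other listed genes were called in both directions over the 22 comparisons of regions and ages. Ptgs1 was called higher in 3 and lower in 4, and Mitf and Slc18a2 each higher in 3 and lower in 2. Alox5 was called higher in 1 and lower in 2, and Ndst2 higher in 3 and lower in 0. Of the genes under the filter, the mucosal proteases were at or near 0, with 0 counts of Mcpt1 and 9 of Mcpt2 over all 100 libraries. Fcer1a had 43 counts, Ms4a2 285, Tpsg1 242 and Gata1 234.

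Library by library, the members were correlated within groups, though the correlation of other pairs of genes was not worked out for comparison. The deviations of log2 CPM from the group means had a median correlation of 0.4649 over the 21 pairs of members (0.2401 to 0.8629, 100 libraries, which share the depth of each library). Kit was the loosest, with a median of 0.3413 with the others, against 0.5792 among the other 6. The genes most like the members by this measure, ordered by the median of their correlations with the separate members, were Agtr2 (0.5893), Igfbp5 (0.5666), Ntrk2 (0.5637), Sfrp2 (0.5477) and Il1rl1 (0.5287), of which Il1rl1 is a mast cell gene and the others are known from connective tissue cells and nerves. The leading 10 ran down to Igfbp3 at 0.4775, still above the median of 0.4649 between the members, so by this measure the members do not stand apart. The list depended on the measure. By the levels themselves Slc6a4, the serotonin transporter, stood at 0.8662 and Cyp11a1, the enzyme that starts steroid synthesis, at 0.8519, and Il1rl1 came at place 5 with 0.8143. Over the 70 libraries outside the coronal suture alone Il1rl1 led at 0.773 and Slc6a4 followed at 0.7284. Of the leading 10 genes 2 were shared with the levels and 1 with the libraries outside the coronal suture.

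The single-cell libraries, made from dissected coronal strips and not from the captured regions, were searched for barcodes that held the transcripts. The paper reports hypodermis and dura mater populations in those of E16.5. Where in or beside the suture a barcode lay is therefore not known. Of E16.5 there were 1530 and 1482 barcodes in the 2 libraries, with medians of 1088 and 803 unique molecular identifiers (UMIs, 1 per captured transcript). In 772 and 610 of them haemoglobin genes made up most UMIs, and these stay among the barcodes that the shares are taken of. Of E18.5 there were 2628 and 1999, with medians of 18239.5 and 6554. Age, chemistry and depth differed together, so that shares are not compared between ages. At E16.5, 27 and 13 barcodes carried 3 or more of the 7 genes, which is 1.765% (1.166 to 2.557) and 0.8772% (0.4679 to 1.495) of all barcodes, with exact 95% binomial intervals that cover counting error only. Few of them were deep. Among barcodes with more than 800 genes, 6 of 497 and 2 of 359 remained, since the carriers had medians of 579 and 439 genes. Several of these deep carriers also held markers of other cells. The paper reports more final cells of E16.5 than passed this minimum here, so these shares are not shares of the paper's cells.

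Most of these E16.5 carriers were set well apart from all other barcodes. No barcode held exactly 2 of the genes, and 10 and 14 held 1. The members made up a median of 6.589% and 5.579% of all UMIs of a carrier. Their share was over 1% in 24 of the 27 and 11 of the 13 carriers. In the first library 1 carrier was 83.35% haemoglobin, with 7 member UMIs, and another, with 1273 genes, held 135 UMIs of osteoblast markers. There 1 more, with 2318 genes, held 149 UMIs of erythroid markers and a member share of 0.5112%. In the second library 2 carriers held 14 and 16 UMIs of neutrophil markers. These 2, with 2734 and 2761 genes, were its only carriers over 800 genes. Their member shares were 0.2454% and 0.4475%. The carriers of the first library held 861 of 862 Cma1 UMIs, all 271 of Tpsb2, all 361 of Cpa3 and 271 of 273 of Hdc. Kit was spread more widely, with 77.5% and 55.17% of its few UMIs in the carriers of the 2 libraries. Mcpt4 was in 5 of the 40 carriers, with 19 UMIs against 1144 of Cma1.

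Of the further mast cell genes some lay almost wholly in the same barcodes and others were spread more widely. Over both E16.5 libraries the 40 carriers held all 22 UMIs of Tph1 and all 8 of Tpsg1, and 32 UMIs of Il1rl1 against 3 in the 2972 other barcodes. Srgn, the core protein of granule proteoglycan, had 176 UMIs in carriers and 142 in the others. Fcer1g had 114 UMIs in carriers against 1124 in the others, and was found in 35 of the 40 carriers and in 372 of the 2972 others. Hpgds was found in 8 carriers and 58 others, Ndst2 in 7 and 48, and Mitf in 5 and 40. Ltc4s was found in 1 carrier and 25 others, and the UMIs of Ptgs1 (138), Kitl (115) and Alox5 (6) all lay outside the carriers. Those of Alox5 were in 3 barcodes. The carriers were few beside the other barcodes, so a low count in them says little about absence. Macrophage genes had few UMIs in the carriers, with 1 UMI of C1qa against 1013 and 1 of Csf1r against 378. C1qa was found in 1 of the 40 carriers and 229 of the 2972 others, and Csf1r in 1 and 224. The genes named above for their likeness to the members split, a look taken after their values were seen. UMIs of Slc6a4 (37 against 2) and Cyp11a1 (23 against 1) lay mostly in the carriers. Those of Agtr2 (0 against 226), Igfbp5 (9 against 3451) and Sfrp2 (26 against 3490) lay wholly or mostly in the far more numerous other barcodes. Sfrp2 was found in 2 carriers and 451 others.

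At E18.5 the picture was different. The 12 and 19 barcodes with 3 or more members held a median of 4 member UMIs, 0.01315% and 0.01408% of their UMIs. Cma1 was in 266 and 290 barcodes, in 250 and 264 of them with 1 UMI. Barcodes with osteoblast markers held Cma1 in 10.06% and 15.22% of cases (2315 and 1432 barcodes, median 18981 and 7499 UMIs). Those with macrophage markers held it in 12.4% and 20.83% (379 and 48 barcodes). For endothelial markers the shares were 15.87% and 29.03% (63 and 31 barcodes), so Cma1 was not particular to barcodes with osteoblast markers. Whether such shares are background was not tested. One barcode stood out in the second library, with 157 UMIs of Cma1, 141 of Mcpt4, 392 of Tpsb2, 10 of Tpsab1, 210 of Cpa3, 30 of Hdc and 5 of Kit, in all 945 of its 4731 UMIs (19.97%). The first library held no such barcode, with at most 33 member UMIs in any. The E16.5 libraries shared 1 barcode and the E18.5 libraries 5.

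**Figure D5:**
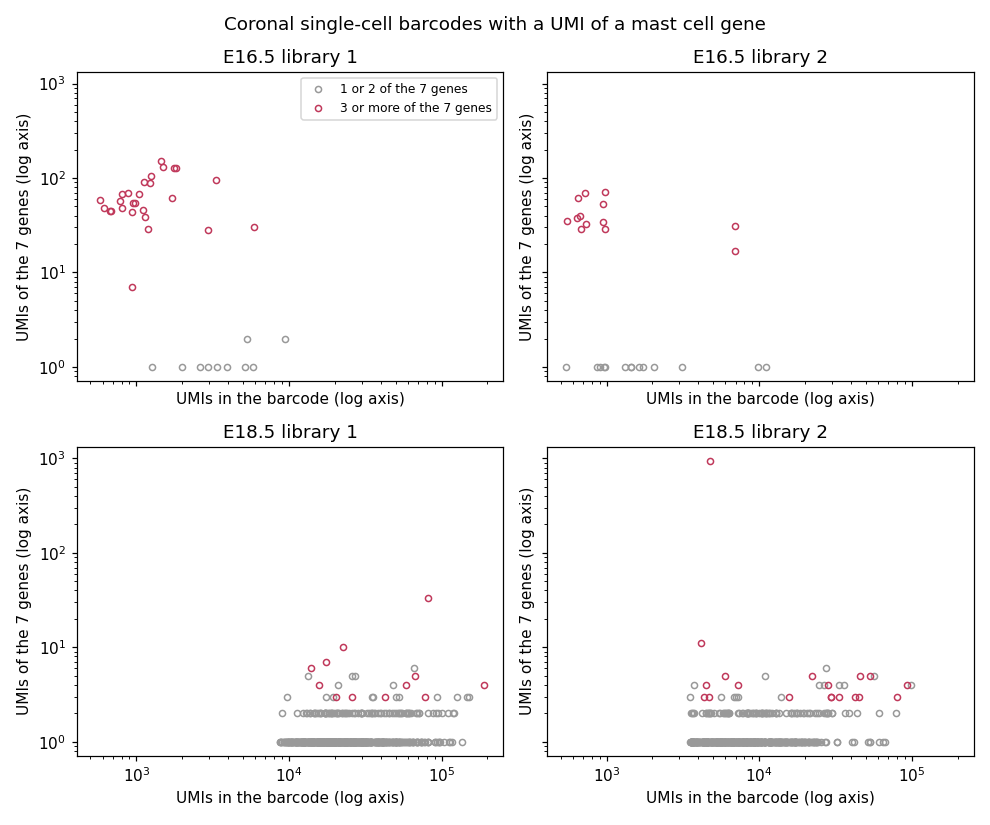
UMIs of the 7 genes (logarithmic axis) against all UMIs of each barcode (logarithmic axis) in the 4 coronal single-cell libraries, coloured by whether 1 or 2 or at least 3 of the genes were found. At E16.5 the barcodes with at least 3 genes lie well above the rest, and at E18.5 1 barcode of the second library stands alone, with 945 UMIs.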

How the data were processed

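RNA was measured in 134 bulk libraries and 4 single-cell libraries of wild-type C57BL/6J embryos. The members and all gene lists were chosen with earlier results of these data known. Per the labels, RNA was purified with the PicoPure kit, amplified with Ovation RNA-Seq V2, which makes amplified reads that are not independent molecules, and made into Nextera XT libraries. Per the authors' methods and processing notes, reads were trimmed with cutadapt, aligned to mm10 with STAR 2.5.3a and counted over exons of GENCODE vM22 with featureCounts 1.6.4, without strand and without reads that map to several places. The deposited bulk values are raw counts per gene without normalization, which keep amplification bias. The deposited single-cell values are counts of UMIs per gene and barcode. A further deposited table holds the authors' own log2 ratios between groups for many comparisons and was not used.

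A gene was kept where more than 10% of the 100 first libraries reached 1 CPM (19768 genes). Counts were fitted with edgeR 4.0.16 (TMM, quasi-likelihood test, 1 model over 20 groups, Benjamini-Hochberg adjusted p under 0.05), in R 4.3.3. The SE printed with a log2 fold change was not fitted directly. It is the absolute log2 fold change divided by the square root of the F statistic of that test, and so is approximate. Region labels gave the groups, and the fit was checked on simulated data. The fold change of a gene with 3 or fewer counts, summed over the libraries of a group, is not given. SM and OF of the same replicate number come from 1 embryo. For the 60 pairs, deviations from the group means correlated by 0.0505 in the median (16 of them over 0.1), and by -0.01211 for 240 pairs with different numbers, and the fit with the embryo as a replicate block is an alternative. Replicates are embryos, and litters hold several of them. Alternatives were DESeq2 1.42.0, limma-voom 3.58.1, other scalings and filters, each suture and stage fitted by itself, the second coronal libraries and leaving out each replicate number. Genes set for naming were the 7 members, further mast cell genes called in 3 or more of 22 comparisons, and the 10 genes most like the members. Not all of the last 10 are named here. Slc6a4, Cyp11a1, Srgn, Hpgds, Kitl, C1qa, Csf1r and the genes under the filter were named after their values were seen.

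Barcodes were used as deposited, with no doublet removal, and a barcode with 3 or more of the 7 genes was called a carrier. The study's minimum of 800 genes was applied where stated. With 2 pooled libraries per age, no test was made between them. RefSeq windows before the start site were read on GRCm38.p6.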

Additional observations from a re-analysis of the deposited data

Results flagged for a closer look

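In 20 of 168 combinations of a gene and a group of 4 or 5 libraries, 1 library stood apart from the others by Dixon's criterion, which chance meets in about 1 in 20 groups of normally distributed values. Of the 20, 12 were coronal. Where every other library is at 0, as in 6 of the 12, the criterion is met whatever the value, so the number is no measure of excess. In the coronal suture at E16.5, embryo 1 stood out in FR for Cma1 (1.995 CPM), Tpsb2 (0.7423 CPM), Cpa3 (12.9 CPM) and Hdc (2.041 CPM), and in SM for Cma1 (0.7794 CPM) and Hdc (10.21 CPM). Embryo 2 of the same age stood out in PA for Tpsb2 (2.393 CPM), Tpsab1 (0.3938 CPM) and Hdc (7.482 CPM), and embryo 3 in SM for Tpsb2 (0.07207 CPM, 2 counts). At E18.5 Mcpt4 stood out in the coronal FR of embryo 4 (2.698 CPM) and PA of embryo 3 (0.7308 CPM).

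In the sagittal suture Mcpt4 was high in SM of embryo 1 at E16.5 (10.62 CPM) and in PA of embryo 1 at E18.5 (3.9 CPM), and low in SM of embryo 3 at E18.5 (0.7597 CPM). Tpsab1 was high in the sagittal PA of embryo 1 at E18.5 (2.228 CPM). Tpsb2 was high in the frontal FR of embryo 3 at E18.5 (27.96 CPM) and low in the lambdoid SM of embryo 3 at E18.5 (28.05 CPM). Among the complete sutures, set IF was high for Tpsab1 in the frontal suture (4.555 CPM) and for Hdc in the sagittal suture (35.83 CPM).

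Kit at E16.5 was lower in SM than in PA in 5 of 5 embryos of the coronal suture and higher in SM than in the OF in every embryo of 4 comparisons of the other sutures. The difference was not tested.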

How the results depend on the processing

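Over the single-gene fold changes of members and further mast cell genes, 6351 of 7132 values under alternatives kept their direction and side of the threshold, 288 lost the call, 284 moved without a test, 11 turned and the rest gained a call. The counts of calls depended on the fit. Of members higher in SM, 22 in all, 41 were called with each suture and stage fitted by itself and 35 by limma-voom, and 15 to 20 when 1 replicate number was left out. Members lower in SM, 10 in all, came to 2 under each of those fits, and to 8 to 11 without 1 replicate. With each suture and stage fitted by itself some genes fell under the filter on low counts and were not tested. Tpsab1 in the coronal suture was among them, so not every missing call was a call that failed. Outside the coronal suture the 21 became 41 and 35 in the same order, and 13 to 20 without 1 replicate. Members higher at E18.5, 3 in all, became 7 by limma-voom, and 2 to 5 without 1 replicate. Members lower at E18.5, also 3, became 1 by limma-voom, 1 with the second coronal libraries in place of the first, 1 with total counts as the scaling, and 1 to 4 without 1 replicate. Calls between fronts, 4 in all, became 2 by limma-voom, 7 with the second coronal libraries summed with the first, and 2 to 7 without 1 replicate. For the further mast cell genes, the 35 calls higher in SM became 77 with each suture and stage fitted by itself and 22 to 29 without 1 replicate, and the 13 lower became 7 there, 7 by limma-voom and 8 to 12 without 1 replicate. Their 8 calls lower at E18.5 became 5 by limma-voom, 3 with the second libraries in place of the first, 4 with total counts and 5 to 6 without 1 replicate. The cause was not tested.

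The replicate block changed the counts of calls by less than 1.5 times, to 26 members higher and 8 lower in SM, 4 between fronts, 39 further mast cell genes higher and 11 lower. In single comparisons it changed the count of members called by more than 1.5 times in 3. These were the lambdoid SM against IP at E18.5 and the coronal SM against FR at E16.5 and at E18.5. Comparisons of the ages could not be blocked, since no embryo has both.

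Fold changes that turned all lay in the coronal suture. With the second libraries in place of the first, Alox5 became 3.60 for FR against PA and 1.72 for SM against PA at E16.5, and 4.29 for the ages in PA, Hdc became -0.09 for SM against FR at E16.5, Mitf 0.29 for SM against PA at E16.5, and Mrgprb2 1.10 for the ages in FR. Without 1 replicate, Alox5 lay between -1.53 and 3.22, between -4.67 and 0.28, and between -0.92 and 3.54 in the same 3 comparisons, Hdc between -3.10 and 3.53 for SM against PA at E16.5, and Mrgprb2 between -5.41 and 1.18 for the ages in FR; replicate 1 turned Alox5 and Hdc, and replicate 3 turned Mrgprb2. In the single-cell libraries of E18.5 the share of barcodes with 3 or more members (0.4571% and 1.047% of those over 800 genes) became 3.695% and 5.296% with 2 or more, and 0.1524% and 0.1232% with 4 or more. Of the 10 genes most like the members, 2 were shared when levels were used, 4 with ranks and 1 without the coronal libraries, the last chosen after seeing the data. Depth limits each library to levels above that of 3 counts, 0.08691 to 0.149 CPM in the coronal and 0.1626 to 0.4106 CPM in the other first libraries, as far as counting error goes.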

Other observations

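The 18 second coronal libraries, which entered no comparison of the report except where named, were uneven as well. Summed over the members without Kit, FR at E16.5 read 34.2, 0.06009 and 0.4485 CPM in embryos 1, 2 and 3, where the first libraries read 17.68, 0 and 3.214 CPM. PA at E16.5 read 22.98, 41.46 and 42.05 CPM, against 13.9, 20.32 and 15.35 CPM in the first libraries. There Tpsb2 read 4.393, 6.613 and 4.768 CPM against 0.3292, 2.393 and 0.5685 CPM. The summed level in SM at E16.5 was 16.65, 5.877 and 1.21 CPM. At E18.5 PA read 10.59, 59.82 and 31.32 CPM in embryos 1, 3 and 4, and SM 0, 2.532 and 0.307 CPM in the same embryos. FR of embryos 1, 3 and 5 read 0.1559, 0.2771 and 0.6921 CPM. Every PA library of E18.5 thus lay above every FR and SM library of that age, and 1 of the 18 held no count. Cma1 in FR of embryo 1 at E16.5 read 14.6 CPM in the second library and 1.995 CPM in the first.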
